A study of Mus musculus with 8 samples.

Results

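RNA of formalin-fixed, paraffin-embedded (FFPE) mouse liver was compared with RNA of flash-frozen mouse liver, with 1 library a side. Genes entered the comparison when their log2 CPM (counts per 1000000 reads) was above 0, that is above 1 CPM, in at least 1 of the 2 liver libraries. This held for 12362 of the 27179 genes of the table, 12250 of them with a symbol. At the edge of this rule Gm11826 entered with 10 frozen and 2 FFPE reads and a higher log2 value of 0.0116, and Gm14964 stayed outside with 0 and 14 reads and a higher log2 value of -0.00139.

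The frozen liver had been flash frozen at harvest, and the FFPE liver had been placed in 10% formalin and set in paraffin blocks. Both libraries hold total RNA isolated with Trizol, for FFPE tissue after removal of the paraffin, and sheared for 6 min in PIXUL, a sonicator that handles many samples side by side. The labels give no strain, sex, age, feeding state, hour of harvest or number of animals for either liver. The same pair of libraries exists for brain, heart and kidney, and these are used only where liver is set against them.

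The liver runs much of the body's metabolism in 1 main cell type, the hepatocyte. Hepatocytes along the path of blood from the portal vein to the central vein carry different enzymes: those at the portal end make urea and glucose, and those at the central end make glutamine and oxidise drugs. Feeding and fasting, the circadian clock, glucocorticoids and the sex-specific rhythm of growth hormone each drive a known set of hepatocyte genes, so liver RNA carries a record of the animal's state at the moment of death.

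The frozen liver library holds 13716870 reads and the FFPE liver library 15619829, of which 49.26% and 40.71% fall in ribosomal RNA genes. Mitochondrial ribosomal RNA genes hold 3793062 frozen and 5941633 FFPE reads, and nuclear ones 2964344 and 416585. All differences below are log2 values of FFPE minus frozen liver on the authors' scale, so a positive value means a higher level in FFPE liver. With 1 library a side there is no replicate check, no test and no SD. A gene is counted as higher or lower when its difference is at least 2-fold (1 on the log2 scale), and bracketed intervals are exact 95% binomial (Clopper-Pearson) limits of the log2 ratio of reads. Without molecular identifiers, several reads can come from 1 molecule, so these limits cover counting error only. In these bulk libraries, fewer cells of a type and less RNA per cell cannot be told apart.

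Most liver transcripts were within 2-fold of their frozen level. Of the 12362 genes, 689 were at least 2-fold higher in FFPE liver (5.57%) and 427 at least 2-fold lower (3.45%), together 9.03%, which leaves 91.0% within 2-fold. The median difference was -0.02 and the SD across genes 0.73, and the levels of the 2 libraries correlated across genes with r = 0.946. On plain CPM of all reads, without the authors' scaling factors, the median moved to 0.27 and the split to 1243 higher and 217 lower, so directions close to 0 depend on the scaling. The labelled tissue held in both libraries: albumin (Alb) had 366650 frozen and 483059 FFPE reads with a difference of -0.08 (0.21 on CPM of all reads), and Cyp2e1, an ethanol-oxidising P450 of the hepatocyte, had 33823 and 47820 reads with a difference of 0.02.

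**Figure D1:**
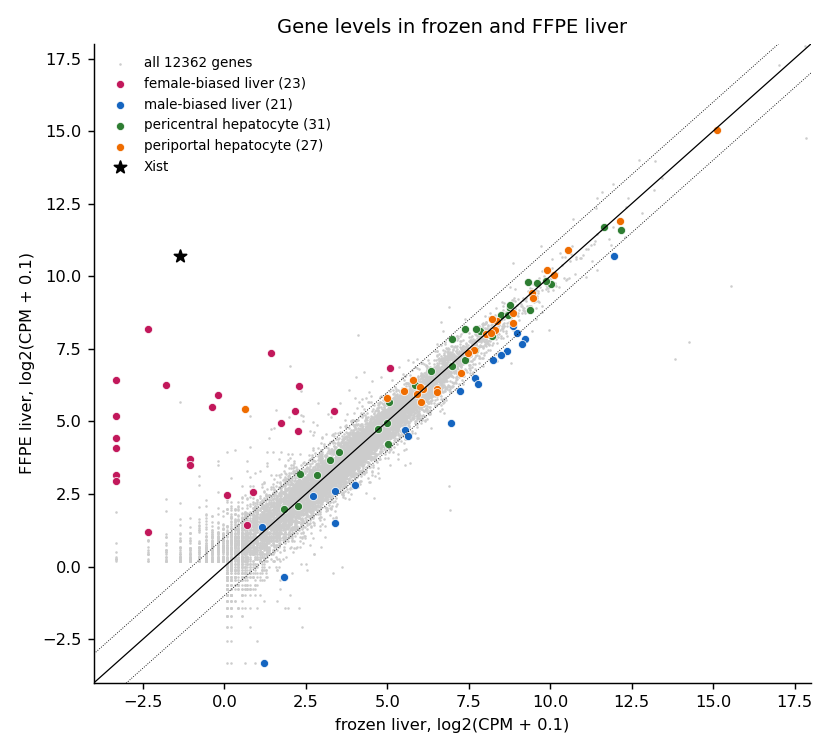
Level of each of the 12362 genes in frozen liver (x axis) and FFPE liver (y axis), both as log2(CPM + 0.1), each library 1 sample. The solid line marks equal levels and the dotted lines 2-fold. Pericentral and periportal hepatocyte genes lie along the line except for Cyp17a1, while Xist (star) and 22 of 23 female-biased liver genes lie above the upper dotted line.

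The 2 livers differed first in transcripts of the sex chromosomes. Xist, the long RNA that silences 1 X chromosome in female cells, had 3 reads in frozen liver and 24213 in FFPE liver (0.288 and 1668 CPM), a read ratio of 5792 at equal depth with limits of 1982 and 28089. The Y-linked genes Ddx3y, Eif2s3y, Kdm5d and Uty, which only male cells carry, were present in both livers. Their summed level was 139.8 CPM in frozen and 62.22 CPM in FFPE liver, and Ddx3y, an RNA helicase, was the most reduced of the 4, with 639 against 308 reads (-1.53 [-1.73 to -1.33]). FFPE liver therefore held both Xist and Y-linked RNA, and frozen liver Y-linked RNA with almost no Xist.

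Heart and kidney showed the same arrangement as liver. Xist had 7 frozen and 4652 FFPE reads in heart and 1 and 15389 in kidney, and the 4 Y-linked genes together had 1335 and 689 reads in heart and 1552 and 1576 in kidney. Brain differed: its frozen library had 13170 Xist reads and 1 Y-linked read, and its FFPE library 9954 and 791. In the liver pair, preservation and the sex or mixture of the animals cannot be told apart, and the part of the animals' sex in the differences that follow was not tested. Counts are therefore also given without the 49 members of the sex-biased and sex chromosome lists, which leaves 666 genes higher and 410 lower. These lists were written from textbook knowledge and need not be complete, so genes outside them may still be sex-biased.

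**Figure D2:**
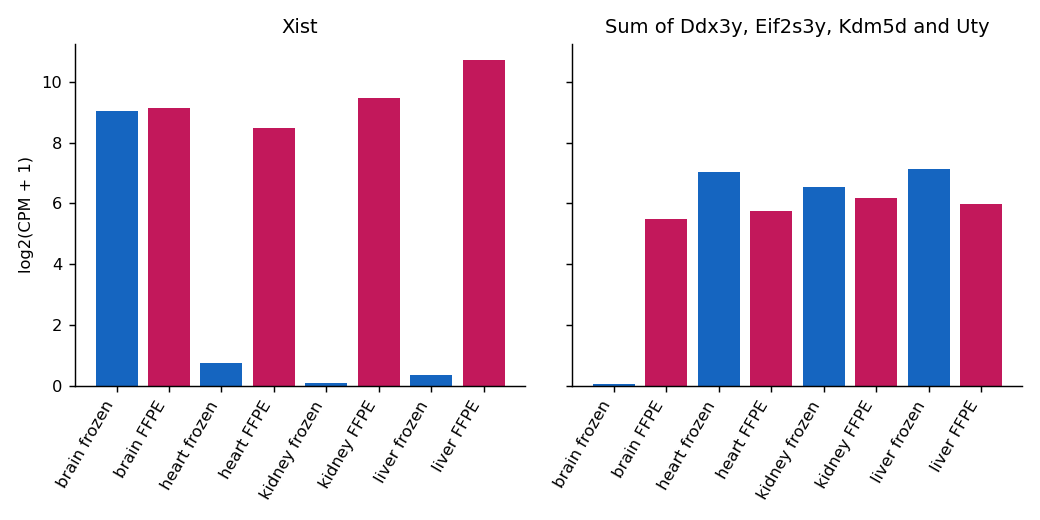
Xist (left) and the sum of the Y-linked genes Ddx3y, Eif2s3y, Kdm5d and Uty (right) as log2(CPM + 1) in each of the 8 libraries, 1 bar per library. All 4 FFPE libraries hold both kinds of RNA. Frozen heart, kidney and liver hold Y-linked RNA with at most 7 Xist reads, and frozen brain holds Xist with 1 Y-linked read.

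Most genes known to be higher in female mouse liver had few or no reads in frozen liver and many in FFPE liver. Pituitary growth hormone reaches the liver in pulses in males and nearly without pause in females, and this rhythm, through STAT5B, BCL6 and CUX2, sets the sex bias of many P450s and conjugating enzymes. Of 23 female-biased genes in the comparison (25 listed), 22 were at least 2-fold higher in FFPE liver and none lower, with a median difference of 4.89, or 4.73 with the 6 genes that had no frozen read set at their floor of 3 reads. The exception was Cyp3a16, with 16 frozen and 38 FFPE reads (0.74). Of these 23 genes 13 entered the comparison through the FFPE library alone, where they are high, so the count of 22 rests in part on that rule; of the 10 above 0 in both libraries 9 were higher. Among all genes 5.57% were higher.

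The P450s of this list carry the largest counts. Cyp2b9, a steroid and drug hydroxylase, had 1 read in frozen and 4205 in FFPE liver, a read ratio of 3018 at equal depth with limits of 541 and 119220. Its neighbour Cyp2b13 had 0 and 1249 reads, at least 299-fold higher. Cyp2a4, a steroid hydroxylase, had 8 and 882 reads (6.22 [5.32 to 7.52]). Cyp2c69, of the 2C family, had 27 and 2381 reads (5.96 [5.44 to 6.59]). Each of these 4 genes had at most 27 reads in frozen liver and at least 882 in FFPE liver.

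Cyp2b9 and Cyp2b13 lie next to each other on chromosome 7 (26173350-26210661 and 26061388-26096197, mm10) and are near copies, so reads of one may have been counted for the other. Shown here are the 250 bases before 1 RefSeq start of each gene (GRCm38.p6, the mm10 assembly, plus strand, chr7:26173159-26173408 and chr7:26061245-26061494). They were picked because both genes were nearly silent in frozen liver and abundant in FFPE liver. Both windows run past the gene starts given above, so their last bases lie within the annotated genes. The windows share 248 of 250 bases. Capitals mark the differing positions, T48C and C104T from Cyp2b9 to Cyp2b13, counted from 1 at the 5′ end.
Cyp2b9: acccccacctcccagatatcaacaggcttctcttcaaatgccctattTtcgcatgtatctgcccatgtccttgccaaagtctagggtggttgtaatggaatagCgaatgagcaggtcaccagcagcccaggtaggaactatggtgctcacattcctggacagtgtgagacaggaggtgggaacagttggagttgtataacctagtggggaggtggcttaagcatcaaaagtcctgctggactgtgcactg
Cyp2b13: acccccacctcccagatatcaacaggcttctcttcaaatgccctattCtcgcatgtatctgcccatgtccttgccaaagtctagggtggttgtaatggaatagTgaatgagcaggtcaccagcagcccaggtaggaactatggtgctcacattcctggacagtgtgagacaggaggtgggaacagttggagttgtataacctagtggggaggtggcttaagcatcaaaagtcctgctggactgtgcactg

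Conjugating and other enzymes of the female-biased list were higher as well. Sult2a2 and Sult2a1, which add sulfate to steroids and bile acids, had no frozen reads and 528 and 308 FFPE reads, at least 126-fold and at least 73.7-fold higher. Sult3a1, a sulfotransferase for amines, had 0 and 244 reads, at least 58.4-fold higher. The plasma protein gene A1bg had 0 and 129 reads, at least 30.9-fold higher, and the hydroxyacid oxidase Hao2 had 0 and 111, at least 26.6-fold higher.

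A regulator of sex-biased liver genes is itself on the list. Cux2, a transcription factor found in female and hardly in male mouse liver, had 4 frozen and 186 FFPE reads (4.89 [3.68 to 6.95]). Slc22a26, a transporter that stands outside the lists, had 3 and 745 reads, a read ratio of 178 with limits of 60.7 and 866. Female-biased genes as a whole summed to 70.85 CPM in frozen and 1181 CPM in FFPE liver.

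Male-biased genes were lower, by less. Of 21 members, 15 were at least 2-fold lower in FFPE liver and none higher, with a median of -1.19, against a background of 3.45% lower, and on CPM of all reads 7 of them were lower. Of the 19 above 0 in both libraries 13 were lower. Hsd3b5, a steroid reductase of male liver, had 1295 frozen and 446 FFPE reads (-2.02 [-2.17 to -1.86]). Elovl3, which lengthens fatty acids, had 5836 and 2983 reads (-1.45 [-1.51 to -1.38]). Cyp2d9, a testosterone 16-alpha-hydroxylase, had 6176 and 3285 (-1.39 [-1.45 to -1.33]), and Cyp4a12a, a fatty acid hydroxylase, 1554 and 961 (-1.17 [-1.29 to -1.06]). All 4 kept at least 446 reads in FFPE liver, and the list's summed level was 8018 CPM frozen and 3473 CPM FFPE.

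Most genes of liver zonation were nearly level. None of 31 pericentral genes was past 2-fold in either direction, with a median of 0.15 and a range of -0.80 to 0.86. On CPM of all reads 3 were higher, Lgr5, Slc1a2 and Cyp2c37. Glul, the glutamine synthetase of the last cells before the central vein, had 4578 frozen and 7512 FFPE reads (0.24 [0.18 to 0.29]). Cyp1a2, which oxidises caffeine, had 3708 and 5889 reads (0.19 [0.13 to 0.25]), and Cyp2e1 stood at 0.02. Axin2, a direct target of the Wnt signal that sets the pericentral zone, had 74 and 128 reads (0.31 [-0.11 to 0.74]), and Lgr5, a receptor that strengthens this signal, 51 and 130 (0.86 [0.39 to 1.37]). Slc1a2, a glutamate transporter of the same cells, had 1322 and 3311 reads (0.85 [0.75 to 0.94]). These 6 marks lay at or somewhat above their frozen level, whereas Oat, another defining member, stood at -0.05 (0.24 on CPM of all reads). Of the 31 genes 19 lay above 0 and 12 below, and Gstm3 was lowest of the list at -0.80.

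Of 27 periportal genes, 1 was higher, none lower, and the median was -0.06 (0.24 on CPM of all reads). Cps1, which starts the urea cycle, had 47248 frozen and 55878 FFPE reads (-0.24, or 0.05 on CPM of all reads), and Ass1, the next step but one, 11518 and 15446 (-0.06, or 0.24). Cyp2f2, the most used portal P450 marker, had 7353 and 8843 reads (-0.21, or 0.08), and Hal, histidine ammonia-lyase, 3011 and 3797 (-0.14, or 0.15). The amino acid enzymes Sds and Gls2 stood at 0.18 and -0.19 (0.10 for Gls2 on CPM of all reads). All of these are within 2-fold, and the sign of the negative ones turned with the scaling.

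The periportal exception was Cyp17a1, the steroid 17-alpha-hydroxylase. It had 15 frozen and 630 FFPE reads (4.87 [4.18 to 5.76]), and at most 1 read in any brain, heart or kidney library. The 4 midzonal genes split: Hamp2, a relative of the iron hormone hepcidin, had 41 and 1731 reads (4.90 [4.48 to 5.41]), whereas Hamp, hepcidin itself, had 1512 and 1390 (-0.60 [-0.71 to -0.49]). Cyp8b1, the sterol 12-alpha-hydroxylase that makes cholic acid, had 4057 and 2288 reads (-1.30 [-1.38 to -1.23]), and Igfbp2 2357 and 1867 (-0.81). Neither Cyp17a1 nor Hamp2 is on the sex-biased lists used here, but absence from these lists does not show a lack of sex bias.

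**Figure D3:**
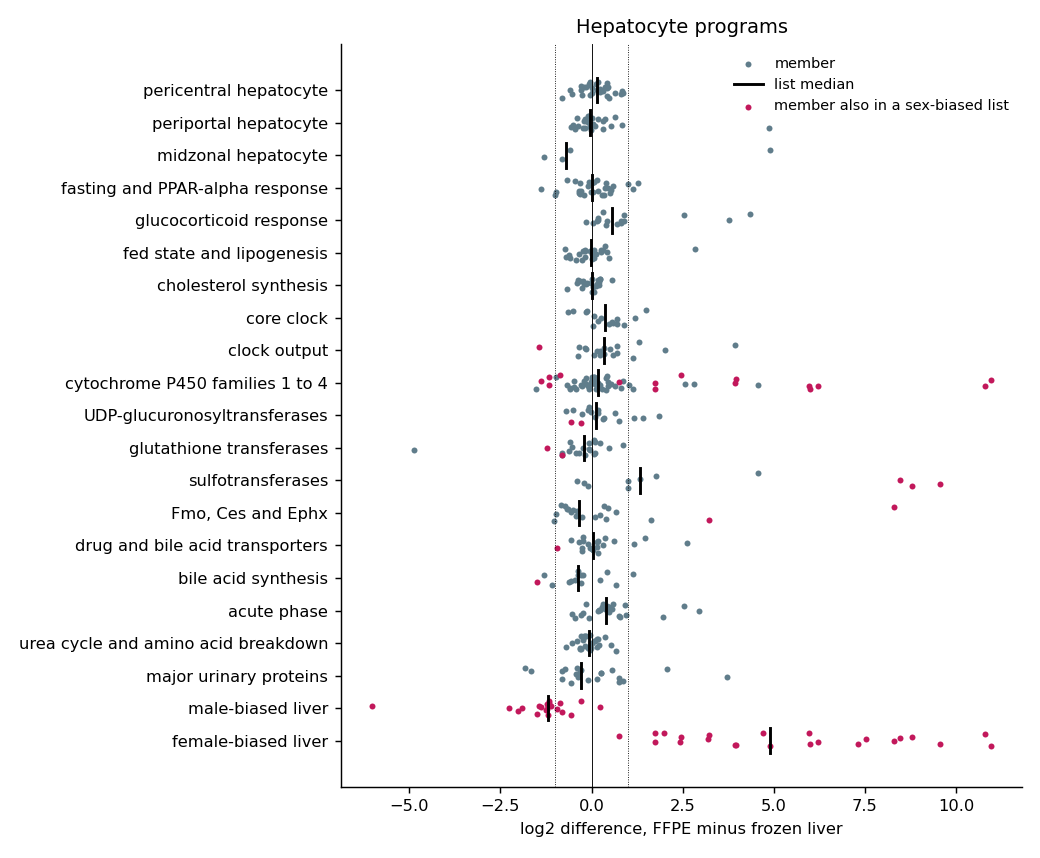
Log2 difference of FFPE minus frozen liver for the members of 21 gene lists, 1 point per gene, with the median of each list as a vertical bar and 2-fold as dotted lines. Points in red also stand in a sex-biased list. Most pericentral, periportal, fasting, lipogenesis, cholesterol and urea cycle members sit around 0. The midzonal list is split, with a median of -0.71, and 13 of the 19 P450 points past 2-fold are red.

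Fasting genes did not move in 1 direction. During a fast, glucagon, glucocorticoids and PPAR-alpha switch on gluconeogenesis, fat oxidation and ketone formation. Of 30 members in the comparison, 2 were higher and 2 lower (6.7% each), with a median of 0.02. Among all genes 5.57% were higher and 3.45% lower. On CPM of all reads 3 members were higher and 1 lower. Ppargc1a, the coactivator that drives the fasting program, had 121 frozen and 409 FFPE reads (1.27 [0.98 to 1.58]), and Cyp4a14, a PPAR-alpha target that hydroxylates fatty acids, 1755 and 5379 (1.14 [1.06 to 1.22]). In the opposite direction, the PPAR-alpha target Acot1, a thioesterase, had 220 and 118 reads (-1.37 [-1.71 to -1.05]), and the lipid droplet protein gene Plin2 2545 and 1756 (-1.01 [-1.10 to -0.93]). Acot1 and Plin2 were on the lower side in brain, heart and kidney as well, at -0.70, -1.22 and -1.28 for Acot1 and -0.52, -0.51 and -0.69 for Plin2. Cyp4a14 was on the higher side in kidney too, at 2.96 with 90 frozen and 907 FFPE reads. It had at most 1 read in any brain or heart library.

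The main gluconeogenic and ketogenic marks measured were within 2-fold. Pck1, the gluconeogenic enzyme that rises most in a fast, had 15555 frozen and 27765 FFPE reads (0.36 [0.33 to 0.39]), and G6pc, which releases glucose, 4786 and 6202 (-0.10, or 0.19 on CPM of all reads). Pdk4, which closes pyruvate dehydrogenase, had 192 and 382 reads (0.51 [0.26 to 0.77]). Cpt1a, the gate of fatty acids into mitochondria, stood at -0.06 (0.23 on CPM of all reads), Igfbp1 at 0.40 and Angptl4 at -0.35. Fgf21, the fasting hormone of the liver, had 3 and 4 reads and stayed below the rule.

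Of 24 genes for fatty acid and triglyceride synthesis, 1 was higher and none lower, against 5.57% and 3.45% of all genes, with a median of -0.01 (0.28 on CPM of all reads). That gene was Pnpla3, a lipid hydrolase induced by feeding, with 8 frozen and 84 FFPE reads (2.83 [1.87 to 4.17]). It entered through FFPE liver alone, and of the 23 genes above 0 in both libraries none was past 2-fold. Scd1, the stearoyl-CoA desaturase, had 53237 and 77285 reads (0.06), and Fasn, fatty acid synthase, 7811 and 8163 (-0.42 [-0.46 to -0.37]). Scd3, a rarer desaturase outside the list, had 125 and 13 reads (-3.70 [-4.69 to -2.92]). Of 22 cholesterol synthesis genes none was past 2-fold, and they ranged from Fdps at -0.69 to Hmgcs1 at 0.57.

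Nearly all glucocorticoid-responsive genes lay above 0. Of 16 members, 3 were higher and none lower, 15 lay above 0, and the median was 0.56. Among all genes 5.57% were higher. Of the 16, 2 were above 0 in 1 library only, and of the 14 above 0 in both 1 was higher. The metallothioneins, which bind zinc and copper and respond to glucocorticoids and metals, led: Mt1 had 12 frozen and 236 FFPE reads (3.76 [2.99 to 4.79]), and Mt2 2 and 71, a read ratio of 25.5 with limits of 6.80 and 214. The third was Lcn2, an iron-binding acute phase protein gene, with 4 and 36 reads (2.54 [1.21 to 4.64]). Tsc22d3, the anti-inflammatory target GILZ, had 965 and 2497 reads (0.89 [0.79 to 1.00]), and Fkbp5, a co-chaperone of the receptor, 174 and 425 (0.81 [0.55 to 1.07]). The list's median was 0.26 in brain, 0.60 in heart and 0.11 in kidney.

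Per2 and Per3 were the core clock genes past 2-fold. The liver clock runs on the activators CLOCK, NPAS2 and BMAL1 (gene Arntl) and on the repressors of the Period and Cryptochrome families, with REV-ERBs (Nr1d1, Nr1d2), RORs and the D-box factors TEF, HLF, DBP and NFIL3 as added loops. Of 16 core clock genes in the comparison, 2 were higher (12.5%) and none lower, against 5.57% and 3.45% of all genes, with a median of 0.37. Per3 had 29 frozen and 116 FFPE reads (1.5 [0.92 to 2.16]) and Per2 108 and 347 (1.20 [0.89 to 1.53]). Per1 followed with 163 and 424 (0.90 [0.64 to 1.17]). These 3 stood above their frozen level. With log2(CPM + 5) none was past 2-fold, and on CPM of all reads 4 core clock genes were, with Per1 and Bhlhe40 added.

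Among the activators, Clock and Arntl stood near 0 and Npas2 above it. Clock had 840 frozen and 1202 FFPE reads (0.04 [-0.09 to 0.17]), Arntl 277 and 435 (0.17 [-0.05 to 0.40]), and Npas2 97 and 221 (0.71 [0.36 to 1.07]). Cry1 stood at -0.16 (0.13 on CPM of all reads) and Cry2 at 0.25. The REV-ERB genes split, with Nr1d1 at 84 and 74 reads (-0.66 [-1.13 to -0.19]) and Nr1d2 at 164 and 336 (0.55 [0.28 to 0.83]). The D-box activators Tef and Hlf stood at 0.58 and 0.49 and the D-box repressor Nfil3 at -0.50. Dbp, with 8 and 12 reads, and Ciart, with 0 and 5, stayed below the rule in both livers.

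The D-box factors bind a short element that was searched in the promoter windows of 13 of the 16 core clock genes; Per2 was not among those searched. For Per3 the 250 bases before the RefSeq start (GRCm38.p6, chr4:151044666-151044915, minus strand) hold 2 matches to the D-box TTATGTAA, searched on both strands, at 205 and 158 bases before the start, shown in capitals.
Per3: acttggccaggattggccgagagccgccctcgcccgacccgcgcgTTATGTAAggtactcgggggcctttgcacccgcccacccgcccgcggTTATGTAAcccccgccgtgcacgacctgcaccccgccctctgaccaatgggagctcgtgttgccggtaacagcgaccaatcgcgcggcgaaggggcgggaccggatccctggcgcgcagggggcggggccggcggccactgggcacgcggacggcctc

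The same 8 letters occur in 233 of 27025 promoter windows of this length (0.862%), in 50 of the 9590 windows of genes in the comparison (0.521%) and in 1 of the 13 windows of core clock genes, that of Per3. A match is a description of the letters and not a measured site.

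**Figure D4:**
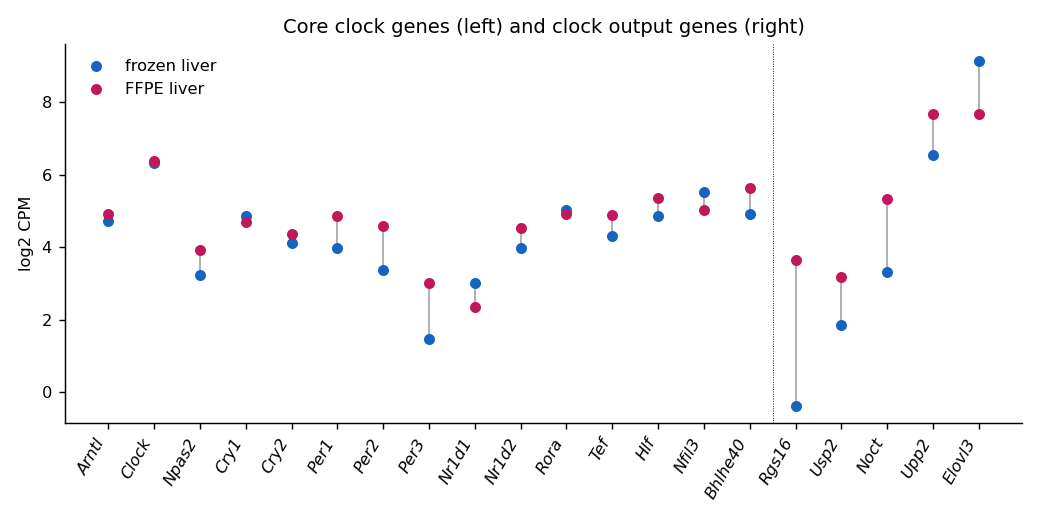
Level in frozen liver (blue) and FFPE liver (red) as log2 CPM for 15 of the 16 core clock genes in the comparison (left of the dotted line) and the 5 clock output genes past 2-fold (right), 1 library each. Per1, Per2 and Per3 lie higher in FFPE liver, the points of Clock nearly coincide, and of the output genes Rgs16, Noct, Usp2 and Upp2 are higher and Elovl3 lower.

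The Period genes were also higher in FFPE tissue of the other organs. Per2 stood at 1.04 in brain, 2.18 in heart and 0.97 in kidney, and Per1 at 0.86, 1.44 and 1.13. Per3 was at 0.23 in brain, 1.86 in heart and 1.07 in kidney. For Per3 the liver difference minus the mean of the other organs was 0.45 ± 0.56 (SE) with a limma adjusted p of 0.9996.

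Among 19 clock output genes of the liver, 4 were higher and 1 lower, against 5.57% and 3.45% of all genes, with a median of 0.34. Of the 18 above 0 in both libraries 3 were higher and 1 lower. Rgs16, a brake on G protein signals with a strong daily rhythm in liver, had 8 frozen and 181 FFPE reads (3.94 [3.01 to 5.25]). It entered the comparison through FFPE liver alone, where it is high. Noct, the deadenylase Nocturnin, had 104 and 586 (2.01 [1.71 to 2.33]). Usp2, a deubiquitinase under direct clock control, had 38 and 132 (1.30 [0.79 to 1.88]), and Upp2, a uridine phosphorylase, 968 and 2977 (1.14 [1.04 to 1.25]). The lower gene was Elovl3, which is also on the male-biased list. Alas1, the entry enzyme of heme synthesis, stood at 0.71 and the cell cycle kinase Wee1 at 0.34 with 32 and 57 reads.

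Among drug-metabolising enzymes, the comparison held 57 of 81 P450s of families 1 to 4, and of these 15 were higher and 4 lower, with a median of 0.16. Of the 48 above 0 in both libraries 8 were higher and 3 lower. The shares over all genes of the comparison were 5.57% higher and 3.45% lower. Without the 15 members on the sex-biased lists, 42 remained, with 5 higher, 1 lower and a median of 0.08. The 5 were Cyp2b10, Cyp4a14, Cyp2j9, Cyp1b1 and Cyp2g1, and the 1 was Cyp2d11. The high-level P450s of both sexes were near level: Cyp2c29 had 9730 frozen and 13284 FFPE reads (-0.03, or 0.26 on CPM of all reads), and Cyp3a11, the main steroid and drug oxidase, 48120 and 44703 (-0.58 [-0.60 to -0.57]).

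Cyp2b10, the standard target of the constitutive androstane receptor CAR, had 54 frozen and 531 FFPE reads (2.81 [2.41 to 3.25]), or 5.18 and 36.6 CPM. Other targets of CAR, PXR and AhR did not share this: of 20 members 2 were higher (Cyp2b10 and Cyp1b1) and 1 lower, with a median of -0.04 (0.25 on CPM of all reads). Of the 18 above 0 in both libraries 1 was higher and 1 lower, against 5.57% and 3.45% of all genes. The lower one was Ces2a, a carboxylesterase, with 3139 and 2148 reads (-1.03 [-1.11 to -0.95]). Cyp1a1, the most inducible AhR target, had 6 and 11 reads and stayed below the rule, and Nqo1, a target of both AhR and NRF2, stood at -0.06 (0.23 on CPM of all reads). Among 17 NRF2 targets none was higher and 2 were lower, Gsta1 with 10 and 0 reads (at least 4.64-fold lower) and Osgin1 with 1117 and 740 (-1.07 [-1.21 to -0.94]), and the list's median was -0.33. Gsta1 was above 0 in frozen liver alone, and of the 16 NRF2 targets above 0 in both libraries 1 was lower.

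The receptors that read bile acids and drugs were within 2-fold of their frozen level. Nr1i3 (CAR) had 849 frozen and 1531 FFPE reads (0.37 [0.25 to 0.49]), Nr1i2 (PXR) 455 and 1023 (0.69 [0.53 to 0.85]) and Nr1h4 (FXR) 1117 and 1524 (-0.03, or 0.26 on CPM of all reads). Hnf4a, the factor that maintains hepatocyte identity, stood at 0.20. Of 21 receptors and liver factors 1 was higher, Onecut1 (63 and 186 reads, 1.08 [0.66 to 1.52]), and 1 lower, Foxa3 (385 and 249 reads, -1.11 [-1.34 to -0.87]). These shares, 4.8% each, stand beside 5.57% higher and 3.45% lower over all genes.

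Among conjugating enzymes, sulfotransferases had 7 of 11 members higher and none lower, with a median of 1.32. The shares over all genes were 5.57% higher and 3.45% lower. Outside the sex-biased list 4 of 8 sulfotransferases were higher, with a median of 1.00. Of the 11, 5 were above 0 in 1 library only, and of the 6 above 0 in both 2 were higher, so most of the count comes from genes that entered through a single library. Sult1d1, which acts on catecholamines, had 564 frozen and 1578 FFPE reads (1.00 [0.87 to 1.15]), and the other 3 (Sult1c2, Sult2a5 and Sult2a7) had at most 36 reads in either library. UDP-glucuronosyltransferases had 3 of 18 higher and none lower, with a median of 0.13. These 3 are Ugt1a7c, Ugt1a5 and Ugt1a10, of which Ugt1a5 had 174 and 643 reads (1.40 [1.16 to 1.66]). Of the 17 UDP-glucuronosyltransferases above 0 in both libraries 2 were higher. Ugt1a genes share their last exons, so reads there cannot be assigned to 1 member.

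Glutathione transferases had none of 22 higher and 2 lower, against 5.57% and 3.45% of all genes, with a median of -0.21 (0.09 on CPM of all reads). Besides Gsta1, this was Gstp1, a male-biased gene, with 4215 frozen and 2508 FFPE reads (-1.23 [-1.30 to -1.16]). Of the 21 glutathione transferases above 0 in both libraries 1 was lower. Flavin monooxygenases, carboxylesterases and epoxide hydrolases had 3 of 20 higher and 1 lower. Of the 19 above 0 in both libraries 2 were higher and 1 lower. The higher ones included Fmo2 (46 and 599 reads, 3.21 [2.79 to 3.69]) and Fmo4 (16 and 71 reads, 1.64 [0.87 to 2.55]). The lower one was Ces2a.

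Transporters and bile acid enzymes held a few differing members. Abcb1a, the drug efflux pump P-glycoprotein, had 16 frozen and 141 FFPE reads (2.62 [1.91 to 3.51]). Slco1a4, an uptake transporter for bile acids and digoxin, had 518 and 1998 (1.47 [1.33 to 1.61]), and Abcg5, which exports sterols into bile, 201 and 629 (1.16 [0.94 to 1.40]). The other 18 of 21 transporters were within 2-fold, among them the canalicular bile salt pump Abcb11 (0.17), the basolateral carrier Slc10a1 (0.37) and Abcc2 (0.32). The list's median was 0.04, and among all genes 5.57% were higher and 3.45% lower.

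Bile acid synthesis had 1 of 15 genes higher and 3 lower, against 5.57% and 3.45% of all genes, with a median of -0.36. Cyp7a1, the rate-limiting enzyme of the classical route, had 2415 frozen and 3976 FFPE reads (0.24 [0.17 to 0.31]). Cyp7b1 of the alternative route, a male-biased gene, had 2299 and 1140 (-1.49 [-1.59 to -1.39]), and Scp2, a peroxisomal thiolase and sterol carrier, 22684 and 14755 (-1.10 [-1.13 to -1.07]), beside Cyp8b1 given above. Cyp39a1, which hydroxylates oxysterols, was higher with 155 and 477 reads (1.14 [0.88 to 1.41]). Cyp27a1, which starts the alternative route, stood at -0.29 with 3110 and 3534 reads.

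Secreted proteins and nitrogen enzymes were level for the most part. Of 28 genes for the urea cycle and amino acid breakdown none was past 2-fold, with a median of -0.08 (0.21 on CPM of all reads). Of 30 plasma protein genes 1 was higher and 1 lower, A1bg and Serpina1e, and both are on the sex-biased lists. A1bg entered through FFPE liver alone, and of the 29 above 0 in both libraries none was higher. Serpina1e, an alpha-1-antitrypsin gene of male liver, had 41438 frozen and 24100 FFPE reads (-1.26 [-1.28 to -1.24]). Apoa1, the main protein of high-density lipoprotein, stood at -0.51 and Ttr at -0.74.

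Acute phase genes, which the liver makes in inflammation, had 3 of 24 members higher and none lower, with a median of 0.40. Among all genes 5.57% were higher. Of the 24, 2 were above 0 in 1 library only, and of the 22 above 0 in both 1 was higher. Orm3 had 6 frozen and 70 FFPE reads (2.96 [1.87 to 4.56]) and Saa3 10 and 56 (1.95 [1.02 to 3.14]), beside Lcn2. The main serum amyloids Saa1 and Saa2, near copies of each other, had 116 and 271 reads (0.74 [0.43 to 1.07]) and 37 and 98 (0.91 [0.37 to 1.51]). The 3 called members were low in both livers, at no more than 4.82 CPM.

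Major urinary proteins, pheromone carriers made in liver under growth hormone and androgens, moved in both directions. Of 22 members 2 were higher and 2 lower, against 5.57% and 3.45% of all genes, with a median of -0.30 (0.02 with the trends in transcript length and GC removed). Mup7 had 10484 frozen and 4152 FFPE reads (-1.81 [-1.87 to -1.76]), and Mup10 103 and 45 (-1.66 [-2.21 to -1.15]). Mup19 had 52 and 960 (3.71 [3.32 to 4.16]), and Mup6 32 and 189 (2.07 [1.54 to 2.67]). These genes are near-identical copies, so counts may have been split among them.

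Of 23 immediate early genes, which respond to stress within minutes, none was 2-fold higher in FFPE liver and 2 were lower, with a median of 0.23. Junb, an AP-1 subunit, had 109 frozen and 53 FFPE reads (-1.51 [-2.02 to -1.03]), and Atf3, a stress-induced repressor, 21 and 9 (-1.66 [-3.01 to -0.51]). Atf3 was above 0 in frozen liver alone. Of the 20 early genes above 0 in both libraries 1 was lower, against 3.45% of all genes. Egr1, another early response factor, had 55 and 139 (0.85 [0.40 to 1.34]), and Fos had 8 and 14 and stayed below the rule. Of 18 heat and cold shock genes none was higher and 1 lower, the small heat shock protein gene Hspb1 with 92 and 54 reads (-1.24 [-1.76 to -0.75]). Hspa1b, the inducible HSP70, had 194 and 272 (0.01).

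Markers of the liver's other resident cells were mostly level, apart from those of bile ducts. None of 17 sinusoidal endothelial markers and none of 18 stellate cell and fibroblast markers was past 2-fold, with medians of -0.33 and 0.21. Of 16 Kupffer cell markers, those of the resident macrophages, 1 was lower (Lyz2, 224 frozen and 155 FFPE reads, -1.01) and the median was -0.22 (0.07 on CPM of all reads). Summed levels were 730.7 and 606.1 CPM for endothelium, 319.8 and 256.0 CPM for Kupffer cells and 459.5 and 519.1 CPM for stellate cells. Of 7 cholangiocyte markers, those of the bile duct lining, 4 were higher: Prom1, Bicc1, Epcam and Pkhd1, the last with 235 and 842 reads (1.36 [1.15 to 1.58]). Their list summed to 59.72 CPM in frozen and 117.8 CPM in FFPE liver, and the duct keratin gene Krt19 stayed below the rule with 6 and 14 reads. Of the 6 cholangiocyte markers above 0 in both libraries 3 were higher, and among all genes 5.57% were higher.

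Traces of other organs differed between the libraries. All 5 kidney tubule markers in the comparison (of 10 listed) were lower in FFPE liver, against 3.45% of all genes. Of these 5, 4 were above 0 in 1 library only, so the count rests for the most part on the rule. The 1 above 0 in both libraries was lower. The kidney tubule list summed to 15.17 CPM in frozen and 2.205 CPM in FFPE liver. Kap, the androgen-regulated protein gene of kidney tubules, had 37 frozen and 4 FFPE reads (-3.54 [-5.64 to -2.21]), and the endocytic receptor gene Lrp2, outside that list, 52 and 14 (-2.33 [-3.34 to -1.50]). Of 11 striated muscle markers the 2 in the comparison were higher: Ttn (titin) had 21 and 142 reads (2.25 [1.61 to 3.01]) and Myh6 (cardiac myosin) 3 and 44, a read ratio of 10.5 with limits of 3.37 and 53.0. Of these 2 muscle markers 1 was above 0 in 1 library only, and among all genes 5.57% were higher. Muscle markers summed to 3.360 and 15.23 CPM. The part of such traces in the liver differences was not tested; frozen kidney itself held 74864 Kap reads.

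In 2 classes of short messages most genes lay below 0 and a minority were past 2-fold. Of 83 cytoplasmic ribosomal protein genes 20 were lower and none higher, with a median of -0.74. Of 76 nuclear genes of the respiratory chain 5 were lower and none higher, with a median of -0.65. Among all genes 3.45% were lower on the authors' scale. On CPM of all reads 3 ribosomal protein genes were lower and 1 higher, and 1 respiratory chain gene was lower. Rps14, a small-subunit protein gene, had 839 frozen and 394 FFPE reads (-1.57 [-1.75 to -1.39]), and Cox7c of cytochrome oxidase 417 and 214 (-1.44 [-1.69 to -1.20]). Both medians were also negative in brain (-0.75 and -0.60), heart (-0.90 and -0.95) and kidney (-0.59 and -0.90). The messages encoded by mitochondrial DNA went the other way, with 10 of 13 higher, none lower and a median of 1.32, against 5.57% higher among all genes. Their median was 0.37 in brain, 0.04 in heart and 0.69 in kidney. COX3 had 169 and 1340 reads (2.50 [2.28 to 2.75]).

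Small RNAs split by type. Of 43 H/ACA small nucleolar and Cajal body RNAs, which guide pseudouridine formation, 21 were higher and 2 lower, with a median of 0.93. The shares over all genes were 5.57% higher and 3.45% lower. Of the 41 above 0 in both libraries 19 were higher and 2 lower. Their median was positive in brain (1.59), heart (0.2) and kidney (1.22) as well. Snora75 had 17 frozen and 532 FFPE reads (4.45 [3.80 to 5.28]) and Snora30 30 and 602 (3.83 [3.32 to 4.43]). Of 57 C/D small nucleolar RNAs, which guide methylation, 8 were higher and 11 lower, with a median of -0.28 (0.01 on CPM of all reads). Of the 53 above 0 in both libraries 5 were higher and 11 lower. Snord49b had 540 and 172 reads (-2.13 [-2.39 to -1.88]). These genes lie in introns of host genes, and the strand and overlap settings of the counting are not given, so host reads may be included.

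Of 9 nuclear long non-coding RNAs 3 were higher and none lower, with a median of 0.52; without Xist 2 of 8 were higher, with a median of 0.47. Neat1, the scaffold of paraspeckles, stood at 0.52. Malat1, a nuclear long RNA, had 70114 frozen and 238526 FFPE reads (1.29 [1.28 to 1.30]), and Kcnq1ot1, a long imprinted transcript, 1080 and 4040 (1.42 [1.33 to 1.52]). Among all 279 long non-coding genes 21.5% were higher, against 4.3% of 11583 protein-coding genes. Rn45s, the ribosomal precursor, had 2459967 and 404911 reads (-3.08), and Rn18s 504365 and 11672 (-5.91). Reads assigned to Lars2, the mitochondrial leucyl-tRNA synthetase gene, numbered 204638 and 3060 (-6.54), and it stood at -2.96, -2.45 and -8.41 in brain, heart and kidney. In frozen liver these reads made 19646 CPM, beside 35200 CPM for Alb. Annotation and strand setting of the counting are not given. Whether the reads come from Lars2 message was not tested.

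The difference also followed transcript length. Protein-coding genes were put in 5 equal groups by their longest annotated transcript. The median difference was -0.32 for the shortest group, at most 2031 nt, then -0.12, -0.04 and 0.05, and 0.18 for the longest, from 5407 nt. The share lower in FFPE liver fell along the same order from 8.43% to 0.61%. Brain, heart and kidney gave -0.34, -0.36 and -0.39 for the shortest group and 0.15, 0.25 and 0.25 for the longest. With the trends in length and GC content removed, the ribosomal protein median was -0.40 and the respiratory chain median -0.26, and 631 genes were higher and 276 lower.

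**Figure D5:**
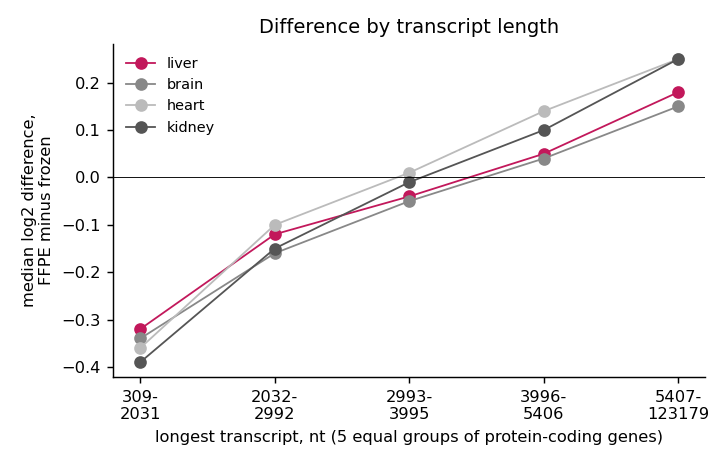
Median log2 difference of FFPE minus frozen tissue (y axis) in 5 equal groups of the protein-coding genes by the length of the longest annotated transcript in nt (x axis), for liver (red) and for brain, heart and kidney (greys), 1 pair of libraries per organ. In all 4 organs the median rises from the shortest to the longest group, in liver from -0.32 to 0.18.

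The liver difference was finally set against the differences of brain, heart and kidney in 1 model, the only test the design allows. limma was fitted to 10554 genes above 0 in at least 1 library of each organ, with the spread taken from how the other 3 organs' differences vary (2 residual degrees of freedom, moderated across genes). At an adjusted p under 0.05 (Benjamini-Hochberg) 6 genes differed (0.0569% of those tested), 5 more positive in liver and 1 more negative, against 10 and 10 on CPM of all reads and 0 and 2 with voom, and 291 had an unadjusted p under 0.05. Since the spread is between organs and not between animals of an organ, these p-values do not measure how the liver difference would vary between mice.

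The gene more negative in liver was Gramd4, a GRAM-domain protein gene. It had 1243 frozen and 99 FFPE liver reads (-4.12 [-4.44 to -3.83]), against 453 and 257 in brain, 247 and 406 in heart and 345 and 378 in kidney. Its liver difference minus that of the others was -4.05 ± 0.39 (SE), with a limma adjusted p of 0.00328. Mt1 came next, at 3.90 ± 0.42 and a limma adjusted p of 0.00606. Mt1 was at -0.34 in brain, 0.30 in heart and -0.37 in kidney, and its liver reads were the fewest of the 4 frozen organs.

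The other 4 were Ptgds, Cux2, Setbp1 and Vldlr. Ptgds, a prostaglandin D synthase gene, had 1 frozen and 25 FFPE liver reads and a difference between liver and the other organs of 4.07 ± 0.47 (limma adjusted p 0.0076). Cux2 stood at 4.40 ± 0.54 (0.00967), Setbp1 at 3.07 ± 0.38 (0.00967) with 5 and 101 liver reads, and Vldlr, the very low density lipoprotein receptor gene, at 2.21 ± 0.32 (0.0344) with 25 and 159 liver reads. Ptgds, Cux2 and Setbp1 were below 1 CPM in frozen liver and entered the test in liver through FFPE liver alone, where they are high. Their calls rest in part on that rule, and they are absent from the setting of genes above 0 in all 8 libraries. Without the mean-variance trend no gene passed, with 366 genes at an unadjusted p under 0.05 and a smallest adjusted p of 0.0751. The organs that enter the comparison mattered too: 30 genes passed without brain, 2 without heart and 57 without kidney. Xist, at 4.96 ± 3.17, did not pass (limma adjusted p 0.9996), with heart and kidney differences of 8.91 and 12.96 beside 12.28 in liver.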

How the data were processed

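Total RNA libraries of frozen and FFPE liver were compared, with those of brain, heart and kidney for the test between organs. The authors deposited 1 table of log2 values per gene and library. Per the submitters' processing notes reads were handled with HISAT2, featureCounts and limma on mm10, with versions, annotation, strand setting and scaling method not given in the sources used here. Worked back from the values, the deposited unit is log2 CPM after adding 0.5 to the reads of a gene, with totals multiplied by 0.759 for frozen and 0.929 for FFPE liver. Read numbers recovered this way were whole in 100% of cells, with a tolerance of 1e-06. A floor of 3 reads stands for 0.288 CPM in frozen and 0.207 CPM in FFPE liver.

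Differences were taken from the deposited values, and limits of read ratios were computed in Python 3.11.15 with scipy 1.17.1. limma 3.58.1 in R 4.3.3 was fitted with organ, preservation and preservation in liver, with a mean-variance trend. On simulated data for the same 10554 genes it recovered 100% of 100 genes changed by 4 on the log2 scale and 78% of 100 changed by 2, with 20 false calls (10.1% of calls). Transcript length and GC content came from GENCODE M21, which matched 98.0% of the genes, and trends were removed by lowess with a span of 0.3. Promoter windows are from RefSeq GRCm38.p6.

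The genes and the gene lists were chosen with earlier results of these data known. Named genes are the members marked as defining in each list, the up to 4 largest differences of each program or RNA class list and the 15 largest rises and falls among genes with at least 50 reads in both livers together, the 2 most abundant members of each list of other cells, and the genes called by limma. Cyp3a16, Cyp2j9, Cyp1b1, Cyp2g1, Cyp2d11, Sult1c2, Sult2a5, Sult2a7, Ugt1a10, Gsta1, Lyz2, Prom1 and Bicc1 fall outside this rule and were chosen after their values were seen. Some genes counted in the lists are not reported here by name. The alternatives were other scalings, filters, pseudocounts and fold thresholds, and other settings of limma.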

Additional observations from a re-analysis of the deposited data

Results flagged for a closer look

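The FFPE minus frozen difference in liver differed from that in brain, heart and kidney for 6 genes by the limma test of that difference. Gramd4, with 1243 frozen and 99 FFPE liver reads, was more negative in liver, by -4.05 on the log2 scale. More positive in liver were Mt1 by 3.90, Ptgds by 4.07, Cux2 by 4.40, Setbp1 by 3.07 and Vldlr by 2.21. Gramd4 passed in 9 of 10 other settings, Mt1 in 8 of 10, Ptgds in 6 of 9, Cux2 and Setbp1 in 5 of 9 each and Vldlr in 4 of 10. The limma adjusted p ranged over these settings from 2.4e-14 to 0.0751 for Gramd4, 2.3e-10 to 0.116 for Mt1, 7.86e-11 to 0.233 for Ptgds, 7.52e-11 to 0.116 for Cux2, 3.04e-07 to 0.481 for Setbp1 and 0.000394 to 0.481 for Vldlr. Cux2 is on the list of female-biased liver genes, and the part of the animals' sex in its difference was not tested. Ptgds rests on 1 frozen liver read. Ptgds, Cux2 and Setbp1 met the filter in liver through FFPE liver alone, where they are high, so their calls rest in part on that rule.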

How the results depend on the processing

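Counts of genes past 2-fold, 689 higher and 427 lower, became 1243 and 217 on CPM of all reads, 374 and 265 for genes above 0 in both libraries, 2943 and 1328 with no filter, 391 and 254 from 50 reads, 107 and 64 with log2(CPM + 5), 155 and 60 at 4-fold, and 1591 and 1428 at 1.5-fold. With length and GC trends removed 276 were lower. On CPM of all reads 7 zonation and 4 core clock genes were past 2-fold and 7 male-biased genes lower. With length and GC trends removed 5 zonation genes passed. With log2(CPM + 5) the counts were 1 fasting, 0 core clock, 12 P450 and 3 sulfotransferase genes, and with no filter 4 core clock and 14 sulfotransferase genes. Above 0 in both libraries they were 11 P450, 2 sulfotransferase and 9 female-biased genes, and from 50 reads 4 sulfotransferases. Without the sex-biased lists, an alternative chosen after seeing the data, 6 P450s and 4 sulfotransferases passed.

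The limma count of 6 became 0 without a trend, 10 with robust variance, 20 on CPM of all reads, 3 for genes above 0 in all 8 libraries, 2 with voom, 30 without brain, 2 without heart and 57 without kidney. Of 1820 alternative values of 261 named genes, 410 moved beyond their counting limits and no called gene changed direction. The cause was not tested in any of these. The planned edgeR test was not run because the deposited unit is log2, and size factors were computed as medians of ratios instead. No paired analysis was possible because the labels give no replicate numbers and each group holds 1 library, so no replicate block exists within liver; the limma model sets FFPE against frozen tissue within each organ. At 3 reads, levels under 0.288 CPM in frozen and 0.207 CPM in FFPE liver could not be told from 0.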
